A study of Homo sapiens with 12 samples.

Results

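The tubulin genes are described here in MNNG/HOS cells given NXP800. Microtubules are hollow polymers of heterodimers of an alpha and a beta tubulin, and both subunits are encoded by small families of near-identical genes called isotypes. Gamma-tubulin does not enter the polymer wall. It sits in ring complexes that start new microtubules at centrosomes and on the spindle. Cells also tune tubulin mRNA to the pool of free subunits, since ribosomes that make tubulin are recognised through the start of the nascent chain and their mRNA is then degraded. The members are a list of gene symbols: 3 alpha genes (*TUBA1A*, *TUBA1B*, *TUBA1C*), 6 beta genes (*TUBB*, *TUBB2A*, *TUBB2B*, *TUBB3*, *TUBB4B*, *TUBB6*) and 1 gamma gene (*TUBG1*). All 10 were among the 43236 genes of the count files, and all 10 were among the 15979 that passed the filter on low counts.

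MNNG/HOS, labelled HOS-MNNG, is a chemically transformed human osteosarcoma cell line. NXP800 is a small molecule that the series title describes as an activator of the kinase GCN2. Cells received 300 nM NXP800 or its solvent DMSO and were taken at 6 h and at 24 h, with 3 RNA-seq libraries in each of the 4 groups. The groups share the line and differ in no labelled allele, and the data come from 1 line only. Each library held between 30810614 and 31947656 counts on genes. Read pairs on no annotated gene were 6.66 to 8.14% at 6 h but 2.73 to 3.67% at 24 h. Whether this share goes with the time or with a batch of libraries cannot be told apart, and NXP800 was compared with DMSO of the same time. The responses at 6 h and 24 h were also compared with each other, and there time and batch cannot be told apart either. Of 8 mesenchymal markers 7 passed the filter, with a summed level of 4010 to 7100 CPM (counts per 1000000 counts of a library, after scaling). Most of that sum was *VIM*, with group means of 3770 to 5370 CPM, while *THY1* had 0.985 to 4.73. Of 8 neuron markers 2 passed, with a summed level of 4.53 to 16.3 CPM, and 2 were at 0 in every library.

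The coding starts of the 10 genes show how alike the members are, and they hold the part that the autoregulation machinery reads as a nascent peptide. The first 24 coding bases of each reference transcript are printed, with the first 12 in capitals.
TUBA1A: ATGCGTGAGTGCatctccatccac
TUBA1B: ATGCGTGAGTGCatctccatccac
TUBA1C: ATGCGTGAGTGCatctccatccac
TUBB: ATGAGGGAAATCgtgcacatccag
TUBB4B: ATGAGGGAAATCgtgcacttgcag
TUBB3: ATGAGGGAGATCgtgcacatccag
TUBB6: ATGAGGGAGATCgtgcacatccag
TUBB2A: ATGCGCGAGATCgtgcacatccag
TUBB2B: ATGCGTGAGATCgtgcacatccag
TUBG1: ATGCCGAGGGAAatcatcacccta
The 3 alpha genes have the same bases over this stretch. Among the beta genes *TUBB3* and *TUBB6* have the same bases, *TUBB* and *TUBB4B* have the same capitals, and *TUBG1* starts differently from all of them. Read as codons, the capitals of all beta genes encode the same amino acids, so their base differences leave that stretch of peptide unchanged. Over the whole coding sequence *TUBB2A* and *TUBB2B* were identical at 98.1% of aligned bases, *TUBA1B* and *TUBA1C* at 97.3%, and *TUBA1A* and *TUBA1B* at 97.2%.

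That likeness bears on the counts, because a read that aligns to several genes can be lost or misplaced. Of the windows of 100 bases in the reference transcript, 55.6% for *TUBB2A* and 48.7% for *TUBB2B* also occur, letter for letter, elsewhere in the genome or in another tubulin transcript. The share was 37.2% for *TUBA1B*, 21.2% for *TUBA1A*, 15.0% for *TUBG1* and 12.3% for *TUBA1C*. It was 5.42% for *TUBB*, 5.35% for *TUBB3*, 3.01% for *TUBB4B* and 0 for *TUBB6*. Paired reads reach beyond such a window, so these shares are upper guides to the loss, and the levels of *TUBB2A*, *TUBB2B* and *TUBA1B* are the least certain.

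The alpha genes lie together on chromosome 12 of GRCh38.p14, *TUBA1B* at chr12:49127782-49131395 and *TUBA1A* at chr12:49184795-49189080 on the minus strand and *TUBA1C* at chr12:49227926-49274600 on the plus strand. *TUBB2A* at chr6:3153666-3157544 and *TUBB2B* at chr6:3224277-3227653 are neighbours on the minus strand of chromosome 6, which also carries *TUBB* at chr6:30720352-30725422 on the plus strand. *TUBB4B* lies at chr9:137241287-137243707, *TUBB3* at chr16:89921925-89936097, *TUBG1* at chr17:42609683-42615238 and *TUBB6* at chr18:12307669-12329826, all on the plus strand. In the GENCODE 44 annotation, exons of other genes cover part of each member. The reads were counted over RefSeq, for which overlaps were not measured. *TUBA1A* and *TUBA1C* are antisense partners in GENCODE 44, yet their RefSeq positions above do not overlap. The shares that follow may therefore not hold for the counts. Antisense exons cover 44.0% of the exon bases of *TUBA1B*, 22.7% of *TUBA1C*, 21.2% of *TUBB6*, 13.5% of *TUBB* and 10.8% of *TUBA1A*, and a same-strand gene covers 21.3% of *TUBB3*. The strand setting of the counting is not given in the sources used here. Whether reads in shared stretches were kept apart by strand, left out as ambiguous or counted for a member is therefore not known.

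Most tubulin mRNAs were lower with NXP800 at 6 h. Of the 10 genes 7 fell and none rose, which compares with 27.8% of all tested genes that fell and 25.0% that rose (edgeR's quasi-likelihood test, Benjamini-Hochberg adjusted p below 0.05 over all 15979 genes). The 7 were 2 of 3 alpha genes, 4 of 6 beta genes and *TUBG1*. The median log2 fold change was -0.36 for the alpha and -0.59 for the beta genes, against -0.05 for all tested genes. At 24 h again 7 of 10 fell and none rose, beside 28.6% and 27.5% of all genes, with medians of -0.50 for alpha and -0.84 for beta against -0.0033 for all genes. The genes that fell at both times were 6: *TUBA1B*, *TUBA1C*, *TUBB*, *TUBB3*, *TUBB4B* and *TUBG1*. In bulk RNA, fewer cells of a kind and less RNA per cell cannot be told apart. As a share of all counts on genes, the 10 genes together took 0.894% ± 0.0317 (SD, n = 3) in DMSO and 0.563% ± 0.0454 in NXP800 at 6 h, and 1.03% ± 0.0657 and 0.623% ± 0.0614 at 24 h.

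**Figure D1:**
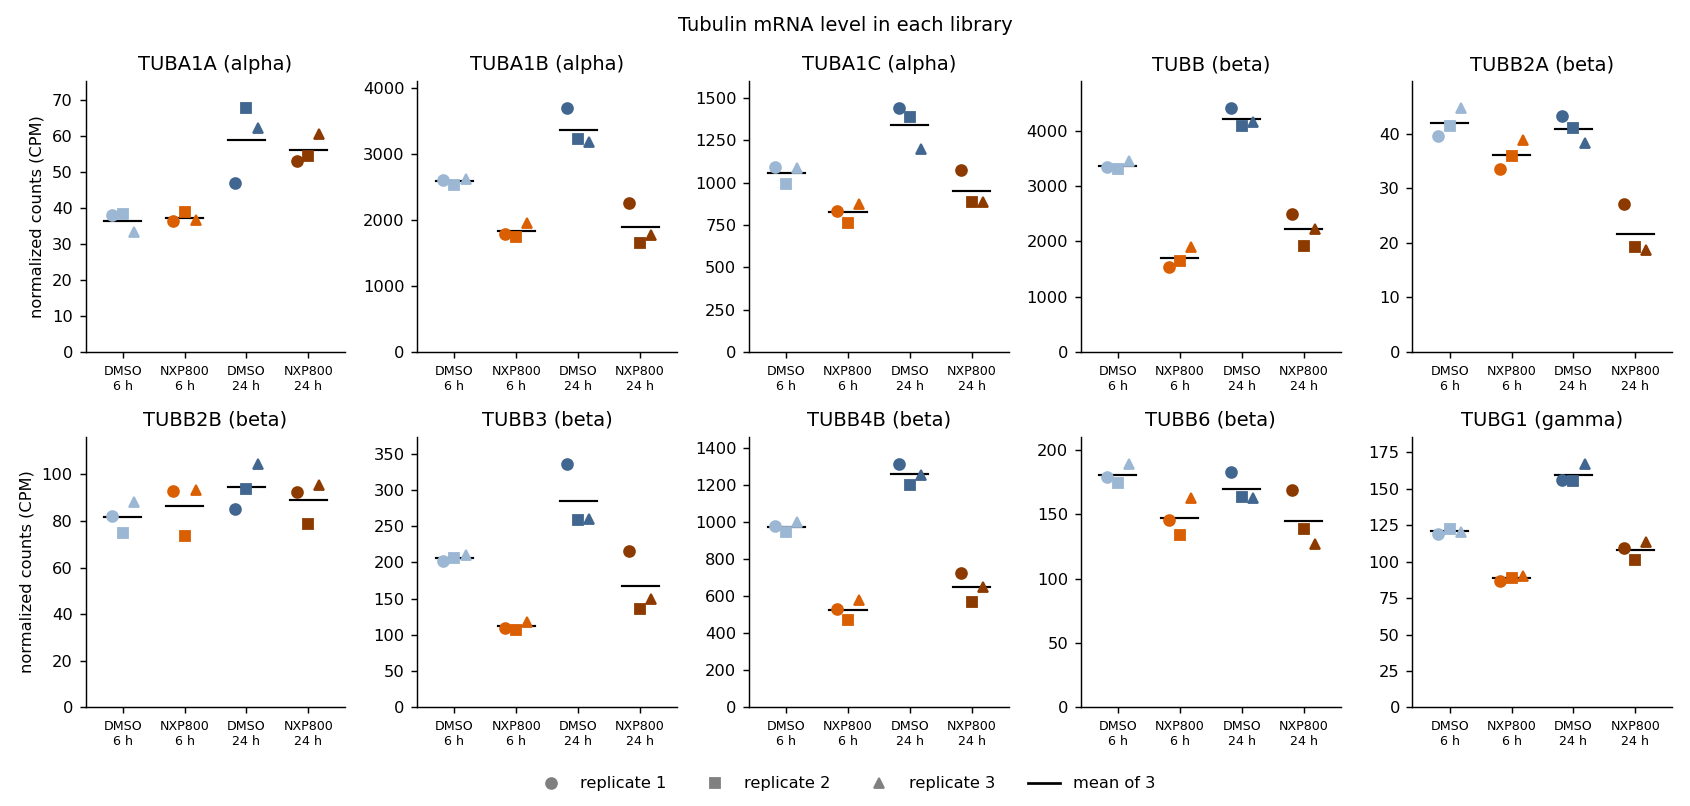
Normalized counts in CPM (y axis, from 0) of the 10 tubulin genes in each of the 12 libraries, by treatment and time, with a symbol for each replicate number and a line at the mean of 3. The NXP800 libraries of *TUBB* and *TUBB4B* lie near 50% of the DMSO mean at both times, those of *TUBA1A* and *TUBB2B* overlap with DMSO, and *TUBB2A* separates widely at 24 h.

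*TUBB*, the most abundant beta isotype here, had 3347, 3307 and 3448 CPM in the DMSO libraries at 6 h and 1535, 1651 and 1900 in the NXP800 libraries. At 24 h it had 4411, 4087 and 4151 in DMSO and 2494, 1921 and 2231 in NXP800. The groups did not overlap at either time, and NXP800 left 50.3% and 52.5% of the DMSO mean. The log2 fold change of *TUBB* was -0.99 (SE 0.10, edgeR adjusted p 4.12e-07) at 6 h and -0.93 (SE 0.10, adjusted p 6.47e-07) at 24 h. Of all tested genes 5.71% had a log2 fold change as low or lower at 6 h.

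*TUBB4B*, a beta isotype found in most tissues, followed *TUBB* closely. Its DMSO libraries had 978.6, 947.3 and 1001 CPM at 6 h, and its NXP800 libraries 530.4, 471.6 and 582.5. At 24 h they had 1317, 1204 and 1256 in DMSO and 723.7, 570.1 and 651.1 in NXP800. All NXP800 libraries were below all DMSO libraries at both times. *TUBB4B* changed by -0.89 (SE 0.09, adjusted p 6.09e-07) at 6 h and by -0.96 (SE 0.09, adjusted p 1.95e-07) at 24 h on the log2 scale.

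*TUBB3*, an isotype best known from neurons and also found in many tumors, was at a lower level and fell by a like amount. Its DMSO libraries had 202.5, 206.4 and 210 CPM at 6 h and its NXP800 libraries 110.1, 107.4 and 118.1. At 24 h the DMSO libraries had 336.1, 258 and 259.8, and the NXP800 libraries 215.6, 135.3 and 149.7. In both groups at 24 h the library of replicate 1 was the highest, and the groups still did not overlap. The log2 fold change was -0.88 (SE 0.13, adjusted p 4.16e-05) at 6 h and -0.77 (SE 0.13, adjusted p 0.000123) at 24 h.

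*TUBB2A* and *TUBB2B*, neighbours of nearly identical sequence, did not give the same values. *TUBB2A* had 39.63, 41.46 and 44.69 CPM in DMSO and 33.44, 35.98 and 38.87 in NXP800 at 6 h. Its 24 h values were 43.16, 41.09 and 38.25 in DMSO and 27.11, 19.16 and 18.76 in NXP800. The NXP800 libraries lay below DMSO at both times, narrowly at 6 h and by a wide gap at 24 h. At 6 h its log2 fold change of -0.22 (SE 0.11) did not pass (adjusted p 0.116), and under a replicate block it did (-0.22, SE 0.07, adjusted p 0.0101). At 24 h *TUBB2A* fell to 53.1% of DMSO (log2 fold change -0.92, SE 0.12, adjusted p 4.89e-06). It was the only member whose response differed between the times, by -0.70 (SE 0.16, edgeR adjusted p 0.00449). In either direction 25.8% of all genes passed this test, and in it time and a batch of libraries cannot be told apart.

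*TUBB2B* had 82.06, 74.94 and 88.28 CPM in DMSO and 92.88, 73.55 and 93.12 in NXP800 at 6 h. Its values at 24 h were 85.18, 93.92 and 104.6 in DMSO and 92.36, 78.57 and 95.66 in NXP800. The groups overlapped at both times, with log2 fold changes of 0.08 (SE 0.10, adjusted p 0.524) and -0.09 (SE 0.10, adjusted p 0.472). The ratio of *TUBB2A* to *TUBB2B* counts, chosen after their values were seen, was 0.366 to 0.507 in the DMSO libraries and 0.196 to 0.294 in the NXP800 libraries at 24 h. At 6 h the ratio overlapped between the groups, with 0.483 to 0.553 in DMSO and 0.360 to 0.489 in NXP800. Whether reads shared by the pair bear on this was not tested.

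*TUBB6*, a divergent beta isotype, moved least among the beta genes that passed. Its DMSO libraries had 179.1, 173.8 and 189.1 CPM at 6 h and its NXP800 libraries 145.4, 133.4 and 162.2. At 24 h they had 182.4, 163.1 and 162.1 in DMSO and 168.8, 138.3 and 126.6 in NXP800. The groups were apart at 6 h and overlapped at 24 h, through replicate 1 of NXP800. *TUBB6* fell at 6 h (log2 fold change -0.30, SE 0.09, adjusted p 0.0145), but not without replicate 3 of DMSO (adjusted p 0.0524) or replicate 2 of NXP800 (adjusted p 0.0803). At 24 h the log2 fold change of -0.23 (SE 0.09) gave an adjusted p of 0.0516, and 0.000772 with the replicate block.

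**Figure D2:**
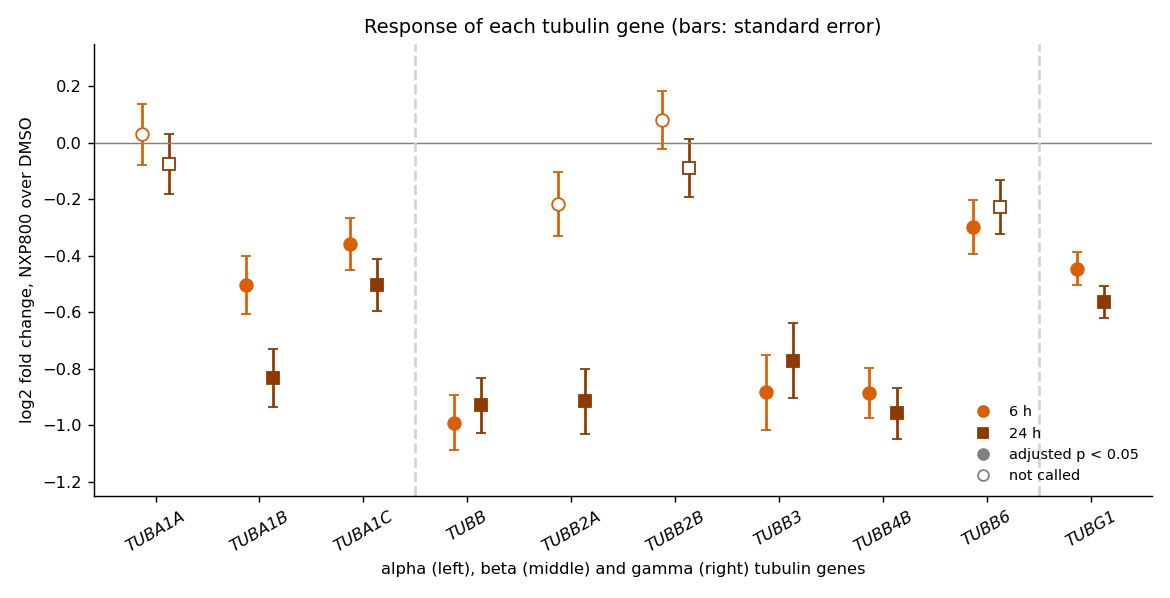
Log2 fold change of NXP800 over DMSO (y axis) with its standard error for each tubulin gene at 6 h and 24 h, from the edgeR fit of all 12 libraries; filled symbols passed an adjusted p of 0.05. *TUBB*, *TUBB3* and *TUBB4B* lie between -0.77 and -0.99 at both times, *TUBA1A* and *TUBB2B* near 0, and *TUBB2A* moves from -0.22 to -0.92.

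Among the alpha genes *TUBA1B*, the most abundant alpha isotype here, had 2608, 2537 and 2630 CPM in DMSO and 1788, 1747 and 1956 in NXP800 at 6 h. Its 24 h values were 3701, 3225 and 3191 in DMSO and 2254, 1648 and 1782 in NXP800. The groups did not overlap, and replicate 1 was the highest library of both groups at 24 h. *TUBA1B* fell to 70.6% of the DMSO mean at 6 h (log2 fold change -0.50, SE 0.10, adjusted p 0.000605) and to 56.2% at 24 h (-0.83, SE 0.10, adjusted p 3.84e-06). The difference between the times, -0.33 (SE 0.14), did not pass (adjusted p 0.104), and did with the replicate block (-0.34, SE 0.08, adjusted p 0.00328) and without replicate 1 of NXP800 at 24 h (-0.47, SE 0.11, adjusted p 0.00605).

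*TUBA1C* had 1092, 994.3 and 1085 CPM in DMSO and 834.9, 763.6 and 875.4 in NXP800 at 6 h. At 24 h it had 1441, 1391 and 1200 in DMSO and 1076, 883.6 and 886.8 in NXP800. All NXP800 libraries were below DMSO. The log2 fold change was -0.36 (SE 0.09, adjusted p 0.00356) at 6 h and -0.50 (SE 0.09, adjusted p 0.000202) at 24 h.

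*TUBA1A*, the alpha isotype known for its part in brain development, was the lowest of the 3. It had 37.99, 38.31 and 33.24 CPM in DMSO and 36.35, 38.86 and 36.63 in NXP800 at 6 h. Later, at 24 h, it had 47.07, 67.82 and 62.28 in DMSO and 53, 54.37 and 60.72 in NXP800. The groups overlapped at both times, with log2 fold changes of 0.03 (SE 0.11, adjusted p 0.831) and -0.08 (SE 0.11, adjusted p 0.561). Without replicate 1 of DMSO at 24 h the value was -0.22 (SE 0.08) and passed (adjusted p 0.0407), and without replicate 2 it was 0.03 (adjusted p 0.815), so 1 library decides its sign.

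*TUBG1*, the gamma-tubulin expressed in most cells, had 119.1, 122.7 and 120.5 CPM in DMSO and 86.8, 88.85 and 90.45 in NXP800 at 6 h. At 24 h it had 156.3, 155.3 and 167.3 in DMSO and 109.5, 101.4 and 113.4 in NXP800. The groups were apart at both times. *TUBG1* fell to 73.4% of DMSO at 6 h (log2 fold change -0.45, SE 0.06, adjusted p 9.16e-06) and to 67.7% at 24 h (-0.56, SE 0.06, adjusted p 5.89e-07). Counted without a test, the NXP800 libraries lay wholly below DMSO for 8 of the 10 genes at 6 h and 7 at 24 h, beside 32.7% and 30.1% of all tested genes.

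Divided by the length of annotated exons, *TUBB* and *TUBA1B* were the highest members in DMSO at 6 h, at 827 ± 17.8 and 725 ± 13.6 CPM per kilobase (SD, n = 3). *TUBB4B* followed at 479 ± 13.2 and *TUBA1C* at 237 ± 12.2. The others lay far below, with *TUBB6* at 45.8 ± 1.97, *TUBG1* at 28.0 ± 0.420, *TUBB3* at 27.8 ± 0.505, *TUBB2B* at 19.7 ± 1.60, *TUBB2A* at 14.4 ± 0.881 and *TUBA1A* at 9.55 ± 0.743. On this scale *TUBG1* and *TUBB3* did not differ beyond their spread, while before division by length their means were 120.8 and 206.3 CPM. The exons annotated for *TUBB3* add up to 7421 bases against 1706 in its reference transcript, the largest excess of the 10 genes, which lowers its value on this scale.

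On that scale the beta sum went down more than the alpha sum at both times. The beta sum was 1380 to 1450 CPM per kilobase in DMSO and 715 to 846 in NXP800 at 6 h, and the alpha sum 943 to 988 and 670 to 753. The alpha sum over the beta sum was therefore 0.681 to 0.699 in DMSO and 0.891 to 0.964 in NXP800 at 6 h. At 24 h it was 0.673 to 0.739 in DMSO and 0.752 to 0.827 in NXP800, again without overlap. *TUBG1* amounted to 1.92 to 2.06% of the beta sum in DMSO and 2.48 to 2.88% in NXP800 at 6 h, and to 1.95 to 2.21% and 2.37 to 2.83% at 24 h. These ratios and shares are descriptions, with no test.

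Within the beta genes *TUBB* held 58.4 to 58.8% of the sum in DMSO and 52.2 to 56.7% in NXP800 at 6 h, and 58.2 to 58.8% and 56.8 to 57.7% at 24 h. *TUBB6* took 3.19 to 3.31% in DMSO and 4.73 to 5.10% in NXP800 at 6 h, and 2.35 to 2.49% and 3.38 to 4.23% at 24 h. *TUBB2B* took 1.30 to 1.46% and 2.47 to 3.09% at 6 h, and 1.10 to 1.44% and 2.07 to 2.42% at 24 h. With other gene lengths the change of some shares was over 1.5 times as large: that of *TUBB* at 24 h, -1.22 percentage points here, was -1.86 with the longest transcript and -2.02 with the reference transcript, and that of *TUBB6*, 1.66 at 6 h and 1.45 at 24 h here, was 2.57 and 2.24 with the longest transcript. The isotypes with the smaller changes took a larger share, while *TUBB* and *TUBB4B* together still made up most of the beta sum. Within the alpha genes *TUBA1B* went from 73.2 to 75.8% in DMSO to 68.4 to 71.2% in NXP800 at 24 h, and *TUBA1C* from 22.9 to 25.3% to 27.3 to 29.4%.

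**Figure D3:**
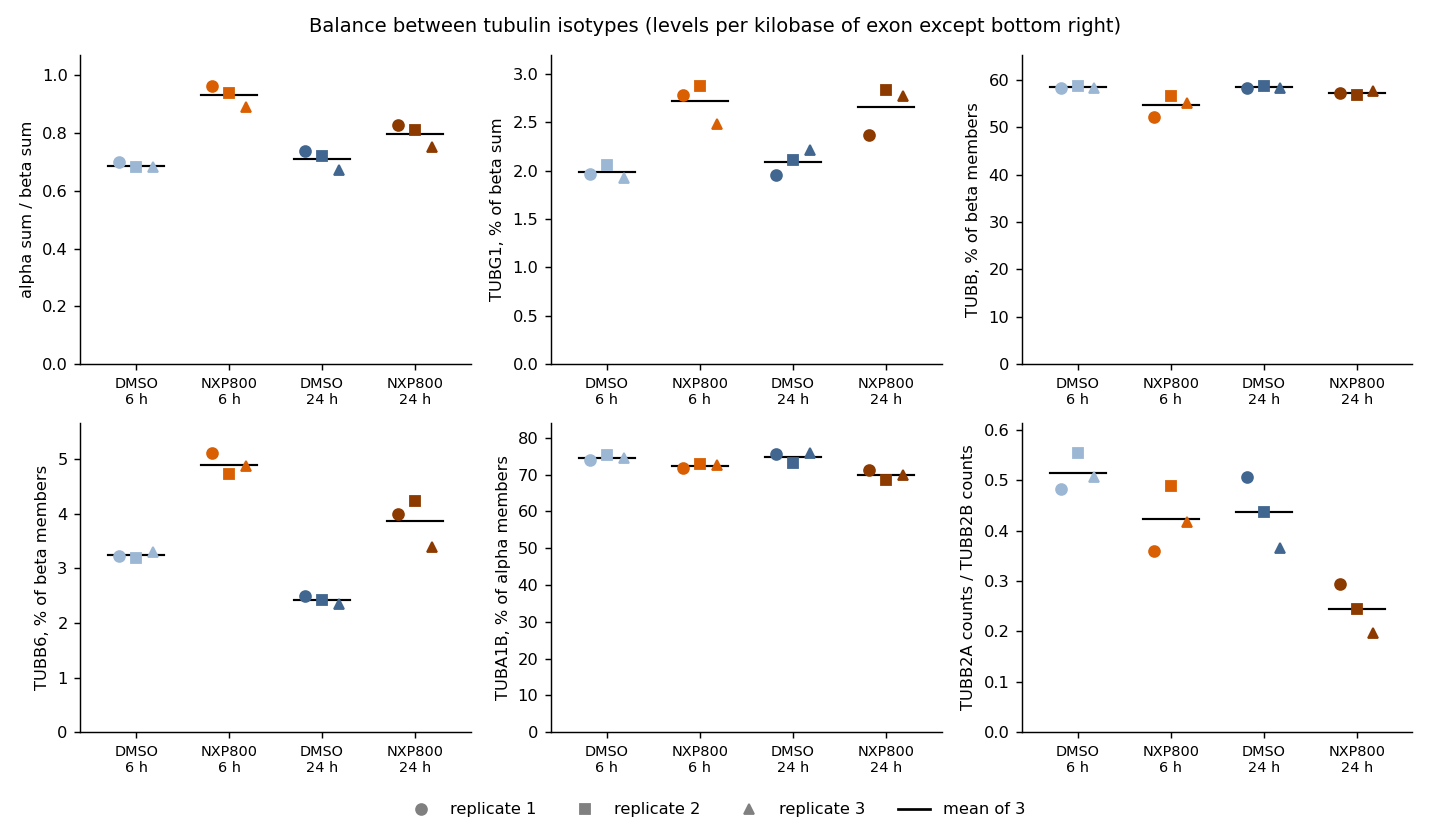
Ratios and shares of tubulin isotypes (y axes, each from 0) in each of the 12 libraries, by treatment and time, with a line at the mean of 3; all use levels per kilobase of exon except the ratio of *TUBB2A* to *TUBB2B*, which uses counts. The alpha to beta ratio and the *TUBB6* share are above DMSO in all NXP800 libraries of a time, and the *TUBB2A* to *TUBB2B* ratio is below DMSO at 24 h only.

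The genes whose pattern over the 12 libraries was most like that of *TUBB*, by the root mean square difference of centred log2 CPM among 12039 genes, were *TUBB4B* (0.07), *TMEM201* (0.09) and *PAQR4* (0.09). For *TUBB4B* they were *TUBB* (0.07), *TMEM201* (0.08) and *FEN1* (0.10). Among the members *TUBA1C* and *TUBG1* were the next closest pair (0.13), and *TUBA1B* and *TUBA1C* followed (0.15).

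The promoters of 4 beta genes are printed because they are the pair of members most alike in their values and the neighbouring pair that differed. Each is the stretch of 250 bases before the annotated start (RefSeq, GRCh38.p14, gene strand), with matches on either strand to the CCAAT box (CCAAT), the TATA box (TATAAA), the CRE (TGACGTCA) and the cell cycle homology region (TTTGAA) in capitals.
TUBB, chr6:30720102-30720351, plus strand: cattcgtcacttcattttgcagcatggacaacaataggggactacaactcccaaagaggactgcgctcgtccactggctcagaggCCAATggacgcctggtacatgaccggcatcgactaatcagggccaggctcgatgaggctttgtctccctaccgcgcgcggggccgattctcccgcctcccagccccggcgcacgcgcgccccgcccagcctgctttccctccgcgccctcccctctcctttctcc
TUBB4B, chr9:137241037-137241286, plus strand: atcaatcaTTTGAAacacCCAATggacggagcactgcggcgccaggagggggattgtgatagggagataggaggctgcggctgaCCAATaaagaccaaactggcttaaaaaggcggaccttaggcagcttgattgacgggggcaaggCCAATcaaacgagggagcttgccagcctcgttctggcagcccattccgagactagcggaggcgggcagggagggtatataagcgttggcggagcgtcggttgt
TUBB2A, chr6:3157545-3157794, minus strand: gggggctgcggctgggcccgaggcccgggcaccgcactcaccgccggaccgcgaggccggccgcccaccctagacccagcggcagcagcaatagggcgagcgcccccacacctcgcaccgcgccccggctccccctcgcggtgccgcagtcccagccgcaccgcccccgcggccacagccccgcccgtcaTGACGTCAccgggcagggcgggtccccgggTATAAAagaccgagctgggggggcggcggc
TUBB2B, chr6:3227654-3227903, minus strand: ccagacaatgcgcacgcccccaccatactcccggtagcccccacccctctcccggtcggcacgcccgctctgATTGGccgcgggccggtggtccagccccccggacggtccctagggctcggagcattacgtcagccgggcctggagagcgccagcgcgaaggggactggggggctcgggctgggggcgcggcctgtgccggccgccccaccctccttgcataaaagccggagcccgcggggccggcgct
*TUBB2A* alone of the 10 genes held TATAAA and TGACGTCA in this window, while 10.7% and 1.65% of 35116 promoter windows hold them. Only these exact letters were counted, so near forms, such as tatataag in *TUBB4B* and ttacgtca in *TUBB2B*, were not. The other genes are thus not shown to lack a TATA box or a CRE. CCAAT was in 8 of the 10 windows against 32.0% of all, with 3 matches in *TUBB4B*, and was in neither *TUBA1B* nor *TUBB2A*. TTTGAA was in 2 of 10 against 13.3%, and GGGCGG (the GC box, not in capitals) in 8 of 10 against 42.6%. Neither TGATGNAAN, the core of C/EBP-ATF response elements, nor GAANNTTC, the core of heat shock elements, was in any of the 10, against 3.13% and 5.78%. A match is a description of letters and not evidence of binding.

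The counts of the lists that follow are read against all tested genes, of which 27.8% fell and 25.0% rose at 6 h, and 28.6% fell and 27.5% rose at 24 h.

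The other tubulins moved in both directions. Of 14 further tubulin genes 7 passed the filter. Of these 4 fell and 1 rose at 6 h, and 4 fell and 2 rose at 24 h. *TUBE1*, the epsilon-tubulin of centrioles, rose most (log2 fold change 2.15, SE 0.12, adjusted p 7.03e-10 at 6 h, and 1.27, SE 0.12, adjusted p 2.35e-07 at 24 h). *TUBD1*, the delta-tubulin of centrioles, fell by 0.65 and 0.76 on the log2 scale (adjusted p 2e-04 and 4.22e-05). *TUBB4A*, a further beta isotype at a low level (mean log2 CPM 0.887), fell at both times (-0.848 and -2.03, edgeR adjusted p 0.0063 and 5.08e-06). *TUBAL3*, also low (mean log2 CPM 0.913), rose at 24 h (1.16, adjusted p 0.000311) and did not pass at 6 h (0.181, adjusted p 0.465). *TUBA4A*, a further alpha isotype, fell by 0.40 and 0.36 (adjusted p 0.00172 and 0.00326). *TUBG2*, the second gamma gene, fell at 24 h (-0.55, SE 0.19, adjusted p 0.0201) and was at -0.22 (SE 0.19, adjusted p 0.353) at 6 h.

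New tubulin is folded by prefoldin, the CCT chaperonin and a set of tubulin cofactors. The list of 15 prefoldin and cofactor genes also holds *TBCK*, a kinase that is not a tubulin cofactor and that passed at neither time. Of these 15 genes 7 fell and 2 rose at 6 h, and 4 fell and 3 rose at 24 h. That is 46.7% down at 6 h, and at 24 h 26.7% down and 20% up, where the share that fell is near that of all genes. *PFDN2*, a prefoldin subunit, rose by 0.77 (SE 0.08, adjusted p 4.65e-07) and 1.09 (SE 0.08, adjusted p 6e-09), and *TBCD*, a cofactor of beta-tubulin folding, fell by 0.43 and 0.79 (adjusted p 1.63e-05 and 1.59e-08). Of the 8 CCT subunit genes 2 fell at 6 h (25.0%, near the share of all genes) and 6 at 24 h (75.0%), and none rose. The median of the 8 at 24 h was -0.22, and the largest fall was that of *TCP1* (-0.53, SE 0.07, adjusted p 4.63e-06). Of 20 genes of the gamma-tubulin ring complex, the augmin complex and their anchoring or adaptor proteins, 7 fell and 2 rose at 6 h, and 15 fell and 1 rose at 24 h. *TUBGCP4*, a ring complex subunit, fell at both times (-0.47, SE 0.09, adjusted p 0.000257, and -0.50, SE 0.09, adjusted p 0.000111), and *HAUS8*, an augmin subunit, fell at 24 h (-0.85, SE 0.08, adjusted p 3.47e-07).

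Of 5 genes of the tubulin autoregulation pathway none fell, and 1 rose at each time, a share of 20% that is near that of all genes. *TTC5*, which recognises the nascent tubulin chain, was at 0.06 (SE 0.07, adjusted p 0.481) and -0.08 (SE 0.07, adjusted p 0.365). *SCAPER*, the adaptor between TTC5 and the deadenylase, rose at 6 h (0.45, SE 0.15, adjusted p 0.0189) and was at -0.01 (SE 0.16, adjusted p 0.953) at 24 h. Of 16 tested genes of tubulin modification 7 fell and 1 rose at 6 h, and 7 fell and 5 rose at 24 h. *VASH1*, a tubulin carboxypeptidase, fell by 1.63 and 0.61 (adjusted p 5.31e-06 and 0.00915), and *AGTPBP1*, a deglutamylase, rose by 0.40 and 0.46 (adjusted p 0.00103 and 0.000346).

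Of 20 tested genes of microtubule-associated proteins 8 rose (40.0%) and 3 fell (15.0%) at 6 h, and 9 rose (45.0%) and 6 fell (30%, near the share of all genes) at 24 h, with medians of 0.08 and 0.30. *MAP1B*, which binds along microtubules, rose by 1.69 (SE 0.11, adjusted p 5.07e-09) and 1.58 (SE 0.11, adjusted p 6.69e-09), and *MAPRE2*, a plus-end binding protein, fell by 0.58 and 1.05 (adjusted p 2.6e-05 and 3.9e-08). Of 8 tested stathmins and severing enzymes 4 fell (50%) and 3 rose (37.5%) at 6 h, and 5 fell (62.5%) and 2 rose (25.0%, near the share of all genes) at 24 h. *STMN1*, which sequesters tubulin dimers, fell by 0.42 (SE 0.07, adjusted p 5.9e-05) at 6 h and by 1.54 (SE 0.07, adjusted p 8.6e-11) at 24 h.

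Of 10 genes of the G2 and M phases 5 fell and 1 rose at 6 h, with a median of -0.21, and all 10 fell at 24 h, with a median of -1.42. *MKI67*, a marker of cycling cells, was at -0.19 (SE 0.11, adjusted p 0.159) at 6 h and fell by 1.73 (SE 0.11, adjusted p 3.05e-09) at 24 h. *TOP2A*, which untangles DNA before division, was at -0.12 (SE 0.06, adjusted p 0.0782) and fell by 1.51 (SE 0.06, adjusted p 2.02e-11). The 10 tubulins had a median of -0.40 at 6 h and -0.67 at 24 h beside these, and the part of the cell cycle in their values was not tested.

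**Figure D4:**
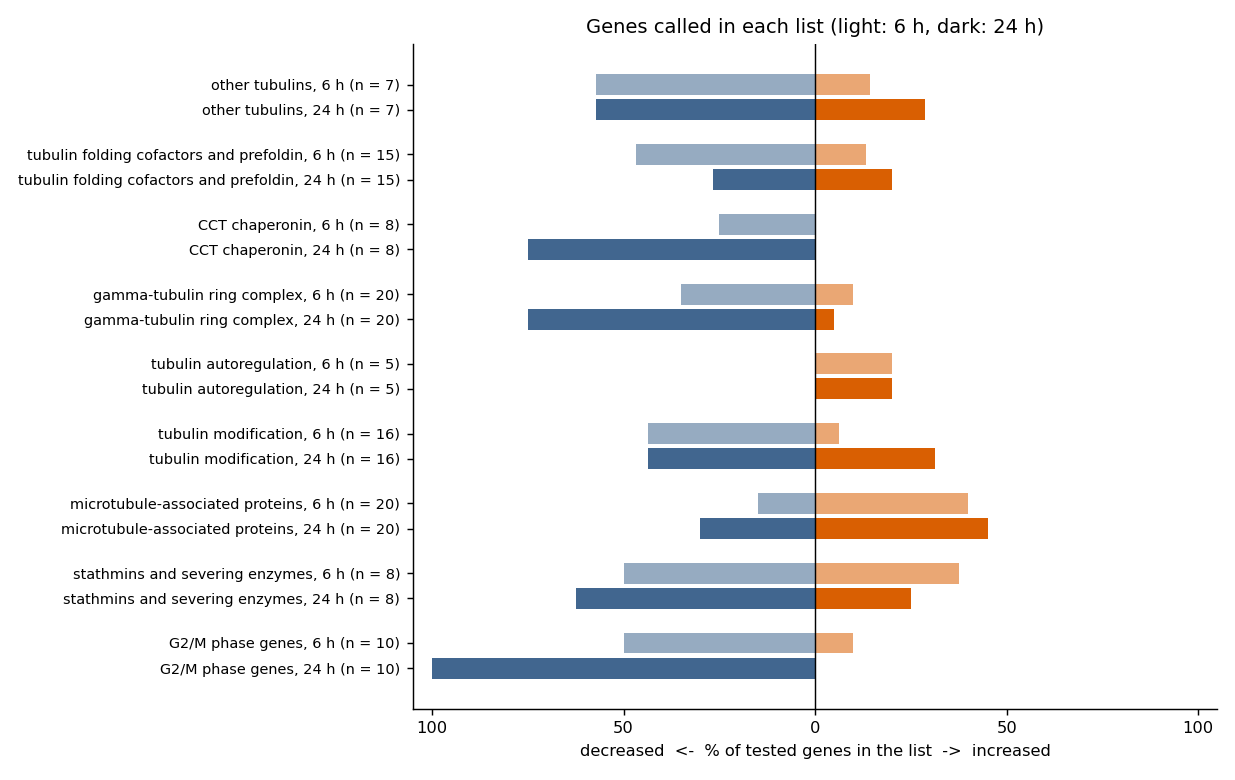
Share of tested genes in each list that decreased (to the left) or increased (to the right) at an adjusted p below 0.05, with 6 h in light and 24 h in dark bars and the number of tested genes in brackets. All 10 G2/M genes decreased at 24 h, while microtubule-associated proteins increased more often than they decreased. The list named for the gamma-tubulin ring complex also holds genes of the augmin complex and of anchoring or adaptor proteins. Of its 20 genes 15 decreased at 24 h.

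Some genes whose exons overlap a member in GENCODE 44 were read beside it. None was read for *TUBA1B* or *TUBB3*, nor for *TUBA1A* and *TUBA1C* apart from each other. *TUBA1B-AS1*, which overlaps *TUBA1B*, was not among the counted genes. *BPHL*, whose exons overlap *TUBB2A*, fell at both times (-0.41, SE 0.09, adjusted p 0.0012, and -0.29, SE 0.09, adjusted p 0.0104), and *MDC1*, which overlaps *TUBB*, fell at 24 h (-0.50, SE 0.06, adjusted p 6.92e-06) and was at -0.05 (SE 0.06, adjusted p 0.516) at 6 h. *PSMG4*, *AFG3L2* and *RETREG3*, which overlap *TUBB2B*, *TUBB6* and *TUBG1*, passed at neither time. *FAM166A*, whose exons overlap *TUBB4B* on the opposite strand, had 2 to 115 counts in a library. It fell at 6 h (-1.31, SE 0.34, adjusted p 0.00391) and was at -0.69 (SE 0.81, adjusted p 0.491) at 24 h. The shared exons were 2.82% of the exon bases of *TUBB2A* and 13.5% of those of *TUBB*, the latter with a second antisense gene.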

How the data were processed

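The data are 12 RNA-seq libraries of polyA RNA, made with a strand-specific kit. The authors trimmed reads with fastp 0.20.1, used STAR 2.7.5a for alignment to hg38 and HTSeq 0.12.4 for counting over the RefSeq annotation (GRCh38.p14), and deposited raw counts per gene without normalization. The strand setting, the treatment of overlaps and the trimming parameters are not given in the sources used here. The dose comes from the study's supplementary legends. The 5 summary lines of the counter were left out of totals and tests. Reads placed at several sites were 1.86 to 3.37% and ambiguous reads 2.10 to 2.43% of a library.

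The counts went into edgeR 4.0.16 under R 4.3.3 (filterByExpr, TMM, quasi-likelihood test, 1 model of the 4 groups, common dispersion 0.00723), with Benjamini-Hochberg adjustment over 15979 genes. Levels are CPM of the TMM-scaled library size. Standard errors are the log2 fold change divided by the square root of F. Results were recomputed with scaling by DESeq2 size factors or by library size alone, without a filter or with at least 10 counts in every library, on the 6 libraries of a time, with a replicate block, by the Wald test of DESeq2 1.42.0, at an adjusted p below 0.01 and without each library in turn. Procedures were tested on simulated data. The bar first set for the share of changed genes recovered was not met, since changed genes of low counts were missed, and it was replaced after this was seen by a bar for genes of higher counts, which was met. In that test the share of false calls of DESeq2 was above the threshold, so its alternative is the less certain. At this depth the spread between replicates, more than counting error, limits most members. For *TUBG1* at 6 h counting error is not small beside that spread. Its SD was 1.82 on a mean of 120.8 CPM in DMSO and 1.83 on 88.7 in NXP800. Replicates differed by more than sampling noise (chi-square per degree of freedom at least 7.36), so none was counted as a duplicate. The labels do not say whether replicates were separate cultures, so p-values measure the spread between these libraries.

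Libraries of the same replicate number went together. As deviations from their group means, DMSO and NXP800 libraries of the same number at a time correlated across genes with r of 0.159 to 0.329. For different numbers r was -0.268 to 0.058. Deviations within a group sum to 0, so the low r of different numbers follows in part from the r of like numbers. The main fit does not use the replicate numbers, and the replicate block does. Genes are not independent replicates. Exons, reference transcripts (MANE Select) and overlaps came from GENCODE 44, and sequences of promoters and positions from RefSeq, which held promoters of all 10 genes. Where several were listed, that at the start of the reference transcript was used. Coding sequences were aligned with Biopython 1.88. Shares divide counts by the length of merged exons.

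The members and the gene lists were chosen with earlier results of these data known. Genes named beside the members are a part of those picked by rule, chosen after their values were seen: of each list and time, up to 2 called genes with the largest rise and 2 with the largest fall (mean log2 CPM at least 1), and for *TTC5* its role in the pathway. The 3 genes most like the member with the largest called change at each time and some genes whose exons overlap a member were also named. *TUBB4A* and *TUBAL3*, below that mean log2 CPM, were named for the size of their change. The difference between the times of 1 further gene of the lists is not reported here.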

Additional observations from a re-analysis of the deposited data

Results flagged for a closer look

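The response of *TUBB2A* to NXP800 differed between 24 h and 6 h by -0.698 on the log2 scale (SE 0.16, edgeR adjusted p 0.00449), with -0.216 at 6 h and -0.915 at 24 h. *TUBB2A* was lower in 3 of 3 NXP800 libraries than in any DMSO library at 6 h, as were 32.7% of all tested genes. The same held at 24 h, as for 30.1% of all tested genes. At 6 h the gap was narrow, with 38.87 against 39.63 CPM, and the fall did not pass (edgeR adjusted p 0.116).

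The same test of the difference, 24 h minus 6 h on the log2 scale, was passed by 25.8% of all tested genes in either direction. It passed for the following genes picked from the lists. They were picked by a large change at 1 of these times, which favours a difference, and picked genes that did not pass are not given. Time and a batch of libraries cannot be told apart here. It was negative for *TUBE1* (-0.886, from a rise of 2.15 to one of 1.27), *TBCD* (-0.359), *TCP1* (-0.384), *NEDD1* (-0.394), *HAUS8* (-0.655), *MAPRE2* (-0.475), *KATNA1* (-0.333), *STMN3* (-0.483) and *STMN1* (-1.12). It was positive for *PFDN2* (0.319), *VASH1* (1.02, from -1.63 to -0.61) and *SPAST* (0.603). Among G2/M genes it was -1.18 for *TPX2*, -0.881 for *CCNA2*, -1.06 for *PLK1*, -1.54 for *MKI67* and -1.39 for *TOP2A*. *SPAST*, which encodes spastin, fell at 6 h (-0.381) and rose at 24 h (0.222). *TPX2* rose at 6 h (0.181) and fell at 24 h (-1).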

How the results depend on the processing

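The 6 genes that fell at both times kept their direction and their side of the threshold under each alternative run. Of 560 values of single genes 544 kept both, and none passed the threshold in opposite directions. The number of members whose response differed between the times was 2 without a filter on low counts and 2 with the replicate block in place of 1, the second being *TUBA1B*. Leaving out each library in turn gave 6 to 8 members called at 6 h, 7 to 8 at 24 h and 1 to 2 for the difference, the 2 without NXP800 replicate 1 at 24 h. *TUBB6* at 24 h passed without a filter (adjusted p 0.02) and without that library (0.0027). *TUBB2A* at 6 h also passed without it (0.0261). *TUBB2B* at 24 h was at 0.0184 without NXP800 replicate 2. The replicate block changed the call of *TUBB2A* at 6 h, *TUBB6* at 24 h and *TUBA1B* between the times, and no other call of a member. Over all genes it raised the calls from 8435 to 9953 at 6 h, from 8953 to 10411 at 24 h and from 4129 to 6284 for the difference. Library-size scaling moved the median of all genes by at most 0.0902. Lengths of the longest or of the reference transcript, the latter chosen after seeing the data, changed 10 of 44 isotype differences by more than the spread. With the longest transcript the share of *TUBB* changed by -1.86 percentage points at 24 h in place of -1.22, and that of *TUBB6* by 2.57 and 2.24 in place of 1.66 and 1.45. With the reference transcript *TUBG1* over the beta sum changed by 1.19 and 0.895 in place of 0.732 and 0.564, and the alpha to beta ratio at 6 h by 0.295 in place of 0.243. The cause of these changes was not tested.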
